A study of Rattus norvegicus with 4 samples.

Results

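The neuropeptide precursor genes Penk and Npw were described across 4 arrays of RTEC11, a rat tracheal epithelial cell line, together with 6 enzymes that process such precursors, Furin, Pcsk5, Pcsk7, Cpe, Cpd and Pam. Members were taken as probe sets annotated to exactly 1 gene symbol, which gave 8 of the 10411 genes with such a probe set on the array and 13 of 12783 probe sets. Penk and Npw had 1 probe set each. Both were chosen by their difference in intensity between the temperatures on these same arrays, so their values are given as a description and were not tested. The enzymes were named as context, with earlier results of these arrays known.

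RTEC11 is conditionally immortalized, which means that it divides only under set conditions. It came from transgenic rats and carries a temperature-sensitive large T antigen of simian virus 40 in all samples, a viral protein that inactivates p53 and the retinoblastoma proteins. Cells had been kept for 3 days at the permissive temperature of 33 °C (2 arrays), at which the antigen is active, or at the nonpermissive temperature of 39 °C (2 arrays), at which it is not. Growth arrest and differentiation at 39 °C are the subject that the labels give, and effects of temperature and of antigen activity cannot be told apart. RTEC11 is 1 line, and the labels do not say whether the 2 arrays of a temperature came from separate cultures, so the spread behind the p-values may be technical only.

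Penk encodes preproenkephalin, the precursor from which Met-enkephalin and Leu-enkephalin, ligands of the delta and mu opioid receptors, are cut. Npw encodes the precursor of neuropeptide W, a ligand of the G protein-coupled receptor Npbwr1. Peptides lie in such precursors between pairs of basic residues. Proprotein convertases cut at these pairs, carboxypeptidases then remove the basic residues left at the end of the peptide, and the amidating enzyme Pam turns a terminal glycine of some peptides into an amide. In neurons and endocrine cells this takes place in dense-core granules with Pcsk1, Pcsk2 and Cpe, while Furin, Pcsk5, Pcsk7 and Cpd act along the constitutive secretory route of many cell types.

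Deposited values were probe set intensities scaled to a trimmed mean of about 500 on each array, with array medians between 152.7 and 174.3. On the log2 scale, the correlation between replicates was 0.979 for 33 °C and 0.980 for 39 °C, against 0.950 to 0.953 between temperatures. The epithelial keratins Krt8 and Krt18, E-cadherin (Cdh1) and Epcam had intensities between 5468 and 15842 on all 4 arrays, and 9 of 10 epithelial markers lay above the limit for dim genes. The basal keratin Krt5 did not, at 28.7 to 59.6, while Krt14, also a basal keratin, was bright at 11449 to 12846. This limit was set at the 40th percentile of all probe sets, an intensity of 81.1.

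Penk went from background to a clear signal. Its intensity was 19.2 and 23.0 on the arrays at 33 °C and 624.1 and 628.3 on those at 39 °C. Both arrays at 39 °C were high, both at 33 °C were low, and replicates lay close together. The means were 21.1 ± 2.69 at 33 °C and 626.2 ± 2.97 at 39 °C (SD, n = 2 each), a ratio of 29.7 in the deposited intensities. Among the 15866 probe sets that are not controls, the Penk probe set ranked 13059 and 12763 in brightness at 33 °C and 3851 and 3871 at 39 °C, where rank 1 is the brightest. This corresponds to percentiles of 17.7 and 19.5 at 33 °C and of 75.7 and 75.6 at 39 °C. A rank describes the brightness of a probe set and does not give the amount of 1 RNA against another.

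Npw moved the other way. Its intensity was 413.3 and 369.4 at 33 °C and 89.3 and 52.2 at 39 °C. The arrays at 33 °C were both high, and the pair at 39 °C differed from each other more, in relative terms, than the pair at 33 °C. The means were 391.4 ± 31.0 at 33 °C and 70.8 ± 26.2 at 39 °C (SD, n = 2 each), and the intensity at 33 °C was 5.53 times that at 39 °C. In brightness its probe set ranked 4985 and 5363 at 33 °C and 9631 and 10666 at 39 °C. The percentiles were 68.6 and 66.2 at 33 °C and 39.3 and 32.8 at 39 °C. In RNA from a whole culture, fewer cells that transcribe a gene and less of its RNA per cell cannot be told apart.

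**Figure D1:**
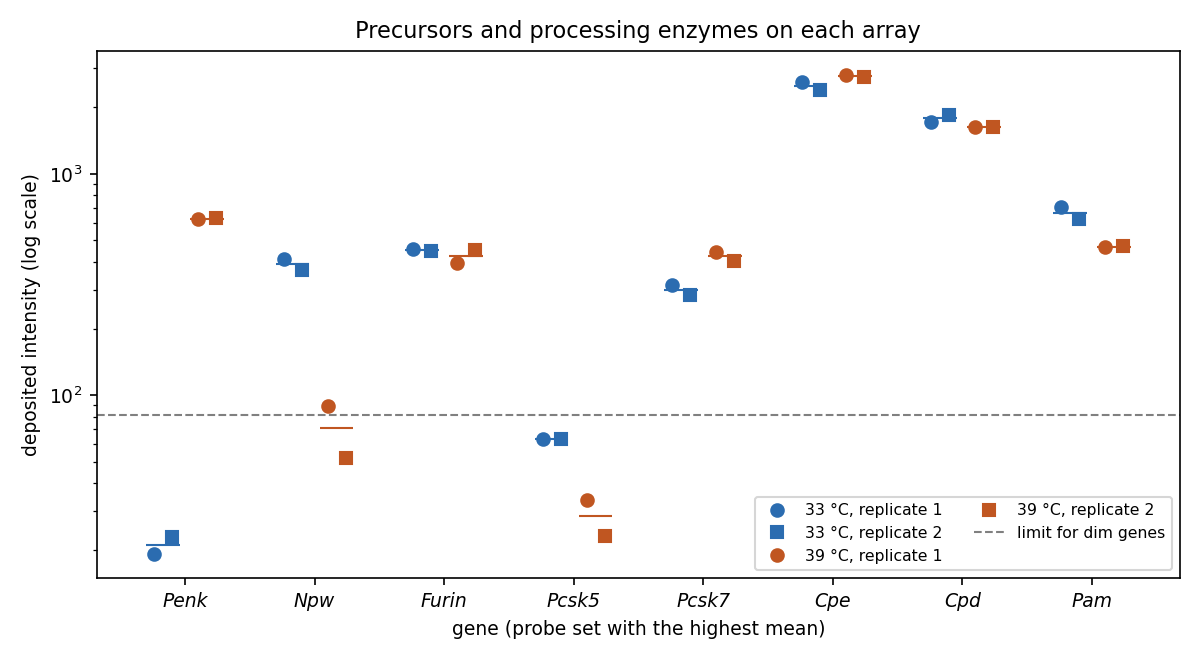
Deposited intensity (log axis) of each member on each of the 4 arrays, by the probe set of the gene with the highest mean; circles are replicate 1, squares replicate 2, blue 33 °C, orange 39 °C, short bars the means of 2 arrays, and the dashed line the limit for dim genes at 81.1. Penk lies at 19.2 and 23.0 at 33 °C and at 624.1 and 628.3 at 39 °C, and Npw lies at 413.3 and 369.4 at 33 °C and at 89.3 and 52.2 at 39 °C.

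The table holds no detection calls, so the background was read from 30 genes restricted to other tissues, such as Alb of the liver, Myh6 of the heart and Prl of the pituitary, with 38 probe sets. Of the 30 genes, 26 were under the limit for dim genes. Their median intensity was between 18.4 and 26.9 on the 4 arrays, their 90th percentile between 81.1 and 113.8, and their highest value between 132.4 and 177.8. Penk at 33 °C lay among them, with 20 and 18 of the 38 probe sets at or above it, and at 39 °C none of the 38 reached it. Npw at 33 °C was above all 38, and at 39 °C 5 and 9 of them were at or above it. Both genes thus lay within the range of these genes at 1 of the temperatures. None of the 38 probe sets changed by more than 1 on the log2 scale between temperatures, and their changes ranged from -0.82 to 0.65.

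**Figure D2:**
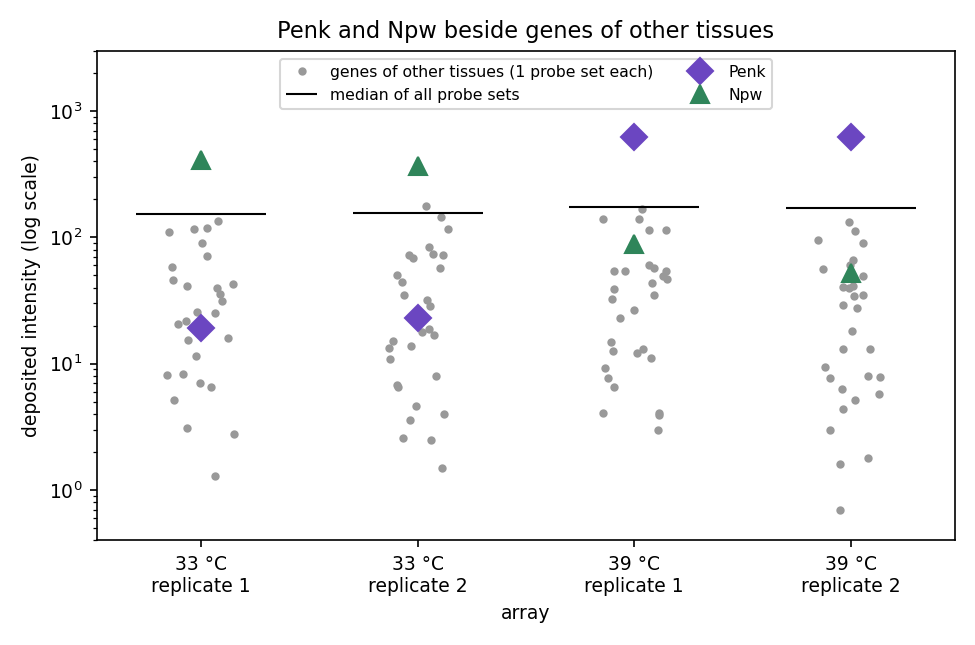
Deposited intensity (log axis) of Penk (diamonds) and Npw (triangles) on each array beside genes of other tissues (grey points, the brightest probe set of each of 30 genes); black bars are the median of all probe sets. Penk lies among the grey points at 33 °C and above all of them at 39 °C, and Npw lies above all of them at 33 °C and among them at 39 °C.

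Fold changes were taken on a log2 scale after 16 had been added to each intensity and the arrays had been quantile normalized, which understates the change of dim genes. On that scale Penk was at 5.27 ± 0.10 at 33 °C and 9.30 ± 0.0059 at 39 °C (SD, n = 2 each), a difference of 4.02. Because neither array at 33 °C reached the limit for dim genes, the fold is better read as a bound. With the dim side set to the limit, Penk was at least 6.47-fold higher at 39 °C. Npw was at 8.72 ± 0.12 at 33 °C and 6.36 ± 0.32 at 39 °C (SD, n = 2 each), a difference of -2.36. After normalization both of its arrays at 39 °C lay under the limit, and Npw was at least 4.34-fold lower at 39 °C by the same bound. The Penk difference was the 7th largest upward and the Npw difference the 10th largest downward among 7016 genes above the limit. Each of the pair was above the limit only through the temperature at which it was high, so that these positions follow in part from the choice of genes.

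The size of the Penk difference depended on the constant added to the intensities, with a log2 difference of 4.70 with 1 added and 2.96 with 64 added. For Npw it was -2.60 and -1.85. Replicate spread at these intensities was wide for Penk's low side: among 1517 probe sets with a mean intensity of 15 to 30 at 33 °C, the 2 arrays differed by a median of 0.72 on the log2 scale and by 1.39 at the 90th percentile. Among 1748 probe sets with a mean of 50 to 100 at 39 °C, the range of Npw, the median was 0.30 and the 90th percentile 0.80. Penk and Npw were chosen by their difference, so these spreads only give the precision of a dim value.

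The 5 genes most like Penk over the 4 arrays, by the Euclidean distance between log2 values centred on each gene's mean, were Krt4, Ccdc80, Krt6c, RT1-CE5 and Ccnd2, out of 6992 characterised genes compared. Krt4, a keratin of stratified epithelia, was nearest with a distance of 0.22. Its intensity was 11.2 and 9.2 at 33 °C and 430.2 and 480.9 at 39 °C. Ccdc80, a secreted matrix protein, came next with a distance of 0.25, and its intensity went from 94 and 96 to 1559 and 1656. The G1 cyclin Ccnd2 was the fifth, with a distance of 0.73. Its intensity of 306.9 and 330.7 at 33 °C was well above the background.

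The 5 genes most like Npw were Cct8, Nipal1, F2rl1, Dhodh and Mt2A. Cct8, a subunit of the cytosolic chaperonin, was nearest with a distance of 0.17. Its intensity was 1843 and 1645 at 33 °C and 362.1 and 250.1 at 39 °C, so that it was bright at both temperatures. F2rl1, the protease-activated receptor that trypsin cleaves, was the third with a distance of 0.34. Its intensity was 3487 and 3421 at 33 °C and 804.8 and 736.7 at 39 °C. With 4 arrays these likenesses rest mainly on the size of the difference between temperatures.

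Of the 6 processing enzymes, 5 were above the limit for dim genes and were tested, and 2 passed (limma, Benjamini-Hochberg adjustment over all 7016 genes, threshold 0.05), Pcsk7 as higher and Pam as lower at 39 °C. Of all genes tested, 49.1% passed in either direction, 23.1% as higher and 26.1% as lower. The enzyme counts were 1 higher and 1 lower on the deposited scale too, 0 and 2 with arrays centred on medians (median centring), and 0 and 3 when the poly-A spike-in controls set the scale (spike-in scaling). Of all 7015 genes tested under these scalings, 1826 were called higher and 1664 lower on the deposited scale. These numbers were 1346 and 2322 with median centring, and 800 and 3359 with spike-in scaling. Arrays of the temperatures did not overlap in 4 of the 5 enzymes tested, Furin being the exception, and in 75.4% of all genes tested. Besides the probe sets used, 5 further ones belonged to Pcsk5, Cpd and Pam, and all 5 were under the limit.

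Furin, the convertase of the trans-Golgi network, had intensities of 457.1 and 449.0 at 33 °C and 395.8 and 452.7 at 39 °C. The values at 39 °C lay on both sides of the lower one at 33 °C. Its log2 change was -0.19 ± 0.13 (SE, 95% interval -0.48 to 0.10), with an adjusted p by limma of 0.262. It was not called after quantile normalization, and it was called lower with spike-in scaling (-0.48).

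Pcsk7, another convertase of the constitutive route, had intensities of 316.0 and 283.2 at 33 °C and 445.1 and 404.3 at 39 °C. Both arrays at 39 °C were above both at 33 °C. It rose by 0.38 ± 0.14 (SE) on the log2 scale, a 1.30-fold change, with an adjusted p by limma of 0.0477, just past the threshold. The call was lost without permissive replicate 2 (0.30), without nonpermissive replicate 1 (0.31) and without nonpermissive replicate 2 (0.45), as well as with no filter on dim genes (0.38). Median centring (0.33) and spike-in scaling (0.10) ended it as well.

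Pcsk5, which like Furin cuts precursors in the secretory route, was not measured well. Its brightest probe set had intensities of 63.6 and 63.1 at 33 °C and 33.6 and 23.2 at 39 °C, all under the limit for dim genes. Its other probe sets lay between 2.0 and 11.7 on all arrays. Pcsk5 was therefore not tested, and no level can be given for it beyond a value under the limit.

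Cpe, the carboxypeptidase that trims neuropeptides in granules, had intensities of 2592 and 2402 at 33 °C and 2803 and 2732 at 39 °C, with both arrays at 39 °C above both at 33 °C. Its probe set ranked between 782 and 995 in brightness on all 4 arrays. The log2 change was 0.21 ± 0.091 (SE, 95% interval 0.015 to 0.41), with an adjusted p by limma of 0.0707, and it turned to -0.00038 with median centring and to -0.23 with spike-in scaling. None of these 3 values was called.

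Cpd, the related carboxypeptidase of the trans-Golgi network, had intensities of 1711 and 1851 at 33 °C and 1624 and 1626 at 39 °C. Both arrays at 39 °C were below both at 33 °C, but the nearest arrays of the 2 temperatures lay closer together than the 2 arrays at 33 °C. The log2 change was -0.11 ± 0.098 (SE, 95% interval -0.32 to 0.11), with an adjusted p by limma of 0.379. It was called lower with median centring (-0.28) and with spike-in scaling (-0.51). The second Cpd probe set lay between 2.4 and 5.1.

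Pam, the amidating enzyme, had intensities of 707.9 and 623.7 at 33 °C and 465.3 and 469.9 at 39 °C. Both arrays at 39 °C were below both at 33 °C, and they lay close together. It fell by 0.57 ± 0.12 (SE) on the log2 scale, a 1.49-fold change, with an adjusted p by limma of 0.0028. The call was made under each scaling and without any 1 array, with log2 changes of -0.65 to -0.48 when 1 array was left out. The further probe sets of Pam had log2 changes of -0.90 and -0.90 from intensities of at most 53.5, under the limit.

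**Figure D3:**
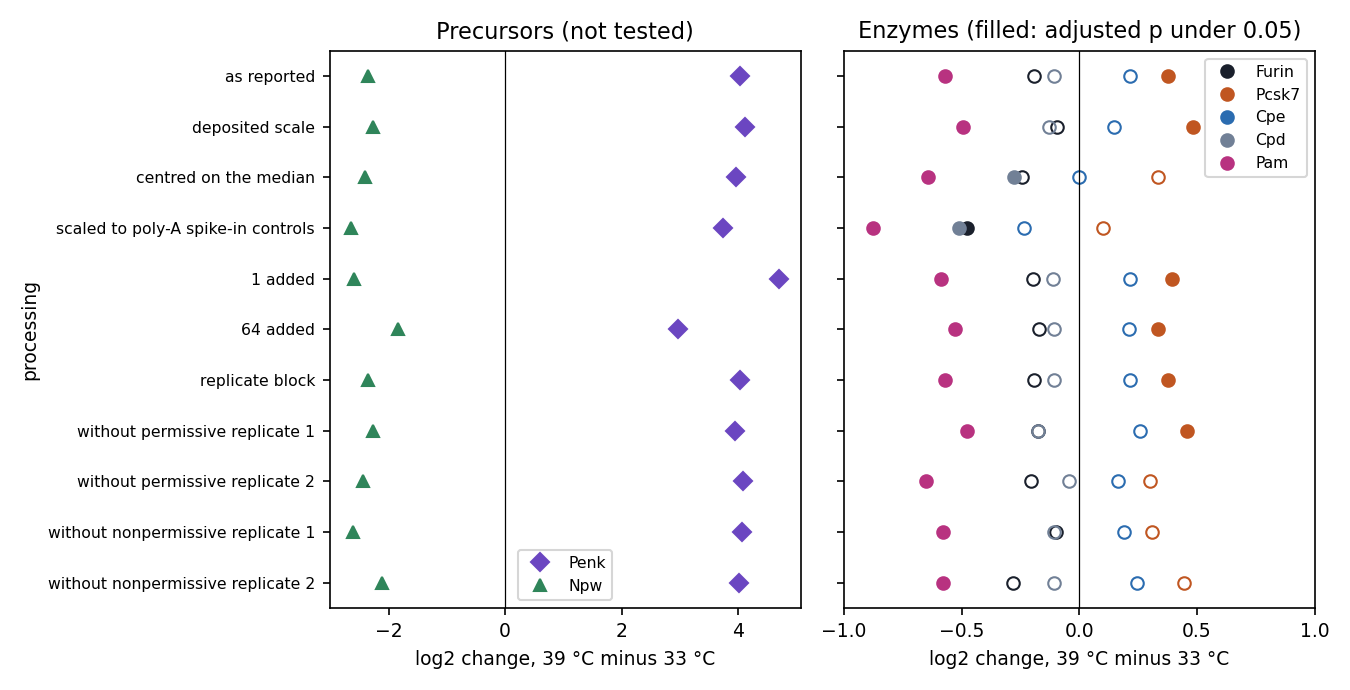
Log2 change from 33 °C to 39 °C (horizontal axes) of Penk and Npw (left) and of the 5 tested enzymes (right) under each processing named on the vertical axis; filled enzyme points have an adjusted p under 0.05 by limma. Penk lies between 2.96 and 4.70 and Npw between -2.64 and -1.85, Pam is filled in every row shown, and the call of Pcsk7 and the sign of Cpe change with the scaling.

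The convertases of the regulated route were not seen. Pcsk2 had intensities of 6.1 to 14.8 on the 4 arrays, and Pcsk1 had no probe set of its own. Of 13 further processing genes 10 had a probe set and 6 were tested, of which 0 rose and 2 fell by limma, against 23.1% higher and 26.1% lower among all genes tested. At an unadjusted p under 0.05 the counts were 0 higher and 3 lower, and no share over all genes is given at that threshold. The adjusted counts were 1 higher and 2 lower on the deposited scale, 0 and 3 with median centring and 0 and 5 with spike-in scaling. Of all 7015 genes tested under these scalings, 1826 were higher and 1664 lower on the deposited scale. These numbers were 1346 and 2322 with median centring, and 800 and 3359 with spike-in scaling. The median log2 change of the 10 was -0.07, against -0.04 for all genes tested. Ctsl, encoding cathepsin L, a lysosomal protease described in bovine chromaffin granules as cutting proenkephalin, had intensities of 4041 and 3775 at 33 °C and 2301 and 2570 at 39 °C. It fell by 0.58 ± 0.093 (SE) on the log2 scale, with an adjusted p by limma of 3.64e-04, and a second probe set had a change of -0.25. Mbtps1, the site-1 protease that cuts sterol regulatory proteins, had intensities of 1172 and 1099 at 33 °C and 741.7 and 933.1 at 39 °C. It fell by 0.46 ± 0.12 (SE, adjusted p by limma 0.0096), and the call was lost without nonpermissive replicate 1 (-0.31). Granins and other granule proteins were mostly dim, with 9 of 10 under the limit. Chga, which encodes chromogranin A of dense-core granules, was at 3.4 to 3.9 on all arrays. The 1 above it was Ptprn, a phosphatase-like protein of the granule membrane, at 265.2 and 260.5 at 33 °C and 210.5 and 222.3 at 39 °C (log2 change -0.40 ± 0.16 (SE), adjusted p by limma 0.0584). Ptprn was called lower with spike-in scaling (log2 change -0.64, adjusted p by limma 0.0052). With the change of -0.40 it was also called lower without the intensity trend (adjusted p by limma 0.0273) and with the mean of each gene's probe sets (0.0472). Ptprn was not called on the deposited scale (log2 change -0.26, adjusted p by limma 0.197). Nor was it called with median centring (0.0508) or with no filter on dim genes (0.116). Its log2 change was -0.44 to -0.37 with 1 array left out.

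Most other peptide precursors were also at background. Of 50 listed, 42 had a probe set and 35 of these were under the limit for dim genes, among them the other opioid precursors Pomc (8.0 to 12.0), Pdyn (7.8 to 33.8) and Pnoc (18.7 to 76.1). Of the 7 tested, 1 rose and 3 fell, against 23.1% called higher and 26.1% called lower among all genes tested. The median log2 change of all 42 was 0.02.

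Sct, encoding secretin, had intensities of 358.5 and 478.3 at 33 °C and 152.5 and 117.9 at 39 °C. It fell by 1.63 ± 0.19 (SE) on the log2 scale, with an adjusted p by limma of 3.71e-05. Nppb, the precursor of B-type natriuretic peptide, had intensities of 488.2 and 484.2 at 33 °C and 208.2 and 176.7 at 39 °C, and fell by 1.38 ± 0.15 (SE, adjusted p by limma 2.49e-05). Edn1, the precursor of the vasoconstrictor endothelin-1, was the member of this list that rose. Its intensity was 462.1 and 485.0 at 33 °C and 976.0 and 929.3 at 39 °C, and its log2 change was 0.93 ± 0.12 (SE, adjusted p by limma 5.86e-05). The calls of Sct, Nppb and Edn1 were made under each scaling and without any 1 array. The third precursor that fell was Calcb, at -0.82, whose call was lost without nonpermissive replicate 1 (-0.72).

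The classical opioid receptors were under the limit for dim genes. Oprm1, Oprd1 and Oprk1, the mu, delta and kappa opioid receptors, and the nociceptin receptor Oprl1 had no probe set with a mean above it. The brightest probe sets were at 51.7 to 59.9 for Oprm1, 48.4 to 73.1 for Oprd1, 45.1 to 90.8 for Oprk1 and 23.2 to 49.8 for Oprl1. Npbwr1 had no probe set of its own, so the receptor of neuropeptide W was not analysed here. Ogfr, the nuclear-associated receptor that binds Met-enkephalin as opioid growth factor, was at 483.3 and 440.7 at 33 °C and 452.8 and 469.3 at 39 °C. Its arrays overlapped, with a log2 change of -0.10 ± 0.13 (SE, 95% interval -0.38 to 0.19, adjusted p by limma 0.565). With spike-in scaling it was called lower (log2 change -0.38, adjusted p by limma 0.0343).

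Among 8 listed peptidases that cut enkephalins or other small peptides 7 had a probe set and 3 were tested, of which 1 rose and 0 fell by limma (1 higher and 0 lower at an unadjusted p under 0.05). The adjusted shares over all genes tested were 23.1% higher and 26.1% lower, and none is given for the unadjusted threshold. The median log2 change of the 7 was 0.21. Npepps, the puromycin-sensitive aminopeptidase, had intensities of 571.2 and 660.8 at 33 °C and 988.6 and 946.1 at 39 °C. It rose by 0.60 ± 0.12 (SE) on the log2 scale, with an adjusted p by limma of 0.0015, a call that was lost with spike-in scaling (0.26). Mme, the neutral endopeptidase called enkephalinase, was under the limit, at 62.3 and 79.8 at 33 °C and 37.1 and 14.1 at 39 °C. Anpep and Ace, also under the limit on average and not tested, went the other way. Anpep was at 38.5 and 50.1 at 33 °C and 135.1 and 67.0 at 39 °C, and Ace at 43.5 and 52.8 and at 99.3 and 119.0. Changes were above 0 in 5 of the 7 and below 0 in 2.

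Transcription of Penk is known to be raised by cAMP through an enhancer that binds CREB and AP-1 proteins. Of 16 such factors and kinase subunits 13 were tested, 4 rose, 3 fell and 6 were not called. Among all genes tested 23.1% were called higher and 26.1% lower, 49.1% in either direction. The median log2 change over the 16 was 0.08, and a link to Penk was not tested. There were 5 higher and 3 lower on the deposited scale, and 4 higher and 5 lower with median centring as well as with spike-in scaling. Of all 7015 genes tested under these scalings, 1826 were higher and 1664 lower on the deposited scale. These numbers were 1346 and 2322 with median centring, and 800 and 3359 with spike-in scaling. The AP-1 subunit Jun had intensities of 477.7 and 576.8 at 33 °C and 1163 and 1268 at 39 °C, and rose by 1.14 ± 0.12 (SE, adjusted p by limma 2.30e-05). Its further probe sets changed by 0.78 and 0.72. Atf3, a stress-induced member of the ATF family, rose by 1.24 ± 0.18 (SE, adjusted p by limma 1.93e-04). Atf4, the factor of the amino acid response, had intensities of 6888 and 6426 at 33 °C and 3438 and 3127 at 39 °C, and fell by 0.90 ± 0.089 (SE, adjusted p by limma 1.19e-05). Atf2 fell by 0.61 ± 0.16 (SE, adjusted p by limma 0.0080), and its call was lost without nonpermissive replicate 1 (-0.50). Fos was under the limit on average, with its brighter probe set at 41.9 to 82.9.

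**Figure D4:**
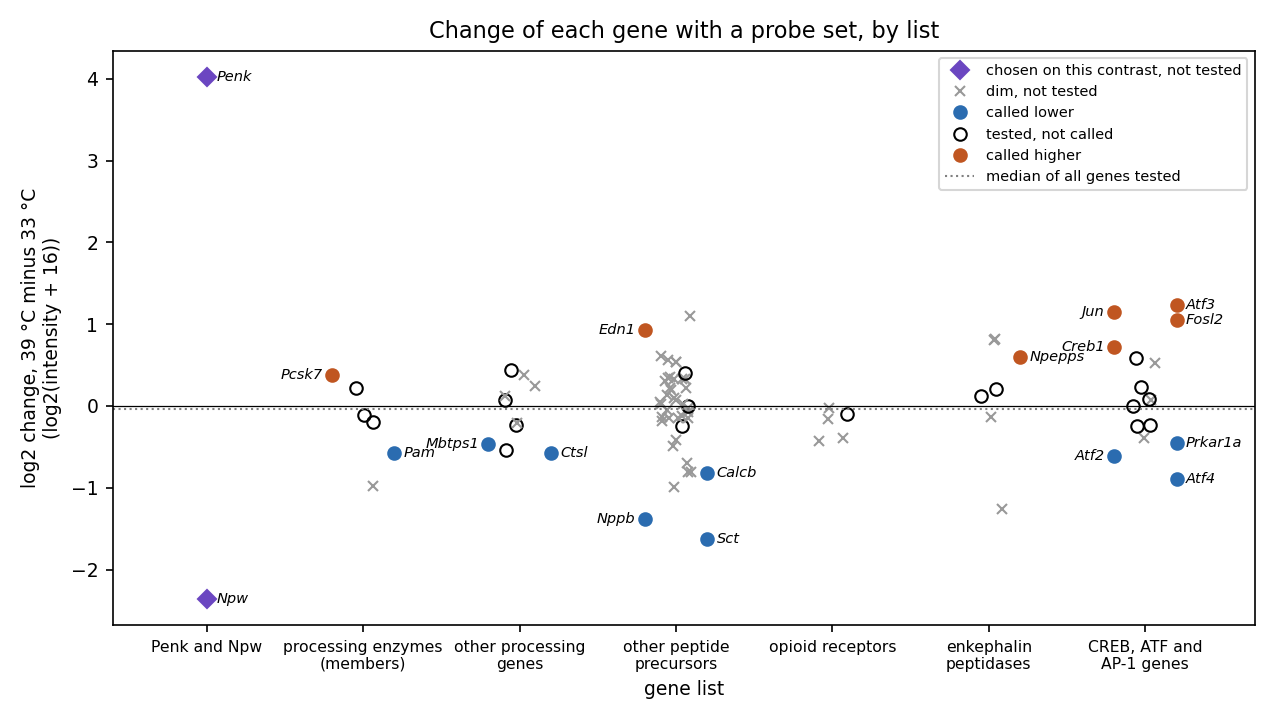
Log2 change from 33 °C to 39 °C (vertical axis) of each gene with a probe set, by gene list (horizontal axis); filled circles passed at an adjusted p of 0.05 by limma (orange higher, blue lower), open circles were tested and not called, crosses were dim and not tested, diamonds are Penk and Npw, which were not tested. Penk, at 4.02, and Npw, at -2.36, were chosen by this difference; the genes in the other lists shown run from -1.63 (Sct) to 1.24 (Atf3).

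Markers of other cells that hold these peptides were mostly at background. Of 10 neuroendocrine markers with a probe set 7 were under the limit for dim genes. The summed intensity of the 10 was 612.5 to 707.1 at 33 °C and 500.7 to 625.7 at 39 °C, with Uchl1 the brightest at 33 °C. Log2 changes were above 0 in 6 of the 10 and below 0 in 4, and Uchl1 fell most. Chga and Snap25 were at 3.4 to 41.0. Syp, at 141.2 to 196.1, and Ncam1, at 101.7 to 159.6, were above the limit and not called. Of the 3 tested, 1 was called lower and 0 higher, against 26.1% and 23.1% of all genes tested. This was Uchl1, with intensities of 280.9 and 225.2 at 33 °C and 13.7 and 63.9 at 39 °C. Its log2 change was -2.56, and -1.81 without nonpermissive replicate 1 against -3.32 without nonpermissive replicate 2. Without either permissive array it fell under the limit for dim genes and was not tested. Among 10 mesenchymal markers, counted because fibroblasts can transcribe Penk, 7 were under the limit. Dcn, Lum and Pdgfra lay between 3.1 and 37.6 on all arrays, while Col3a1 rose from 59.1 and 47.9 to 263.5 and 172.8 (log2 change 1.61 ± 0.27 (SE), adjusted p by limma 4.47e-04). Both Col3a1 intensities at 33 °C were under the limit for dim genes, so it was tested only through its higher values at 39 °C. With a stricter filter on dim genes Col3a1 was not tested. The summed intensity of the mesenchymal list, most of it vimentin (Vim), was 8337 to 9475 at 33 °C and 7965 to 8782 at 39 °C. None of the 9 immune markers with a probe set was above the limit. The part of other cells in the Penk and Npw values was not tested.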

How the data were processed

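Total RNA of each sample was the starting material for an Affymetrix rat array. DNase-treated RNA (5 µg) was turned into biotin-labelled cRNA, per the labels' protocols. The authors deposited intensities on a linear scale for 15923 probe sets, scaled before deposit as the trimmed means show. The software behind them was not given in the sources read. At most 0.220% of values were identical between replicates, so no array was taken as a copy.

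The values were used as log2(intensity + 16). Array medians differed by 0.175, above the limit of 0.1, so the arrays were quantile normalized without the 57 control probe sets. Genes were named through GEO's platform annotation, checked by Entrez identifier against RefSeq of GRCr8 (12754 matched). The probe set with the highest mean stood for a gene (those ending in _x_at only where there was no other), and 3395 of 10411 genes under the 40th percentile were left out. The temperatures were compared by lmFit and eBayes of limma 3.58.1 (R 4.3.3) with an intensity trend and 2 residual degrees of freedom. Tests were two-sided, with p-values adjusted by Benjamini-Hochberg over 7016 genes. The fit was also run on simulated data with independent noise and few changed genes. That setting is unlike these arrays, and no conclusion is drawn from it. Figures were drawn with matplotlib 3.10.9.

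The members and the 11 further gene lists were chosen with earlier results of these data known. Named genes were all members, all receptors, up to 2 called rises and 2 called falls per list by size, and for Penk and Npw the 5 genes with the smallest distance. Others were named by choice, outside this rule. These were Calcb, the cell type markers, and dim or uncalled genes such as Pcsk2, Chga, Mme, Fos and the other opioid precursors. Alternatives were other scalings, 1 or 64 added, other filters and probe set rules, a fit without the trend, a replicate block, and each array left out in turn. The number of arrays limits the precision.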

Additional observations from a re-analysis of the deposited data

How the results depend on the processing

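Penk was higher and Npw lower at 39 °C under the 9 alternatives that could change their values. The filters, probe set rules, trend and replicate block, 6 in all, cannot move the difference of a gene with 1 probe set. The Penk difference of 4.02 on the log2 scale was 4.12 on the deposited scale, 3.73 with poly-A spike-in scaling, 4.70 with 1 added, 2.96 with 64 added and 3.94 to 4.08 with 1 array left out. The Npw difference of -2.36 was -2.64 with the spike-in scaling, -2.60 with 1 added, -1.85 with 64 added and -2.61 to -2.12 with 1 array left out. The changes with the added constant follow from its construction, since Penk at 33 °C and Npw at 39 °C were dim. Of the 5 enzymes tested 2 were called, against 1 of 4 with the mean of each gene's probe sets, where Pam fell under the limit for dim genes, and 1 to 2 with 1 array left out. Pcsk5 passed with no filter on dim genes (log2 change -0.98, adjusted p by limma 0.0452). The Cpe change turned to -0.00038 with median centring and to -0.23 with the spike-in scaling. The median change of all genes tested was -0.04, against 0.02, -0.13 and -0.36 on the deposited scale, with median centring and with the spike-in scaling, and 47.0% of the calls were higher, against 52.3%, 36.7% and 19.2%. Counts of all called genes stayed within 1.5 times of 3448 under all 15 alternatives. The replicate numbers were shared by the temperatures, but nothing in the labels pairs them and the replicate differences correlated at -0.0064 over 7016 genes. With the replicate block 3706 genes and 2 enzymes were called. Leaving out an array leaves 1 array at that temperature, which is assumed to vary like the others.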
